A study of Arabidopsis thaliana with 15 samples.

Results

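Salicylic acid is the plant hormone that governs defence against pathogens that feed on living cells, and 10 genes of its network were followed through every leaf library of the study. They were taken by their AGI locus codes from the 34307 loci of the deposited table and comprised 3 pathogenesis-related genes (PR1, PR2 and PR5), 2 synthesis genes (ICS1 and ALD1), the 3 members of the lipase-like EDS1 family (EDS1, PAD4 and SAG101), the salicylic acid receptor gene NPR1, and ACD6. All 10 were measured, and all 10 were among the 17595 loci with a mean normalized count of at least 10 that entered the tests. Where a code had more than 1 row the row with the most reads was used, which concerned ACD6 alone, whose second row held 22 reads over all libraries against 22043 in the row used.

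The study sequenced total leaf RNA of Arabidopsis thaliana (Col-0 background) at an age of 21 days, grown at a constant temperature under long days. There were 15 libraries, 3 for each of 4 subtypes of the ubc22 mutant and 3 for WT. All 4 subtypes carried the same mutation and descended from 1 mutant parent, so they differed by appearance and not by a labelled genotype. Type I plants looked like WT, Type II plants had broader and rounder leaves, Type III plants had long, narrow, pale leaves, and small plants with serrated leaf margins made up Type IV. WT plants were Col-0 without the mutation. The labels give neither the number of plants in a library nor the hour of harvest, and the mutant is represented by the progeny of a single parent.

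As background, salicylic acid in Arabidopsis leaves is made mainly in plastids through isochorismate, and its level rises when intracellular immune receptors signal through the EDS1 family. The hormone binds NPR proteins, which act with TGA transcription factors to switch on PR1 and many other genes. N-hydroxypipecolic acid, whose synthesis starts with ALD1, works beside salicylic acid, and ACD6, a membrane protein with ankyrin repeats, raises salicylic acid signalling in a feed-forward loop.

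UBC22, the gene named by the mutant, had normalized counts of 226.5 to 378 in the 12 ubc22 libraries, against 663 to 696 in the 3 WT libraries, without overlap. Library totals were 8865955 to 13138977 reads. A normalized count is a locus's reads divided by the library's size factor. Log2 fold changes below are differences of log2(normalized count + 1), given with their standard error. Values written as "-fold" are plain ratios of normalized counts. A change was called where the p-value of a single limma fit of the 5 groups, adjusted by Benjamini and Hochberg's method across the 17595 loci, was under 0.05. These are bulk leaf samples, in which fewer cells of a type and less RNA per cell cannot be told apart.

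The 3 WT libraries were far apart in these genes, and so were the 3 Type IV libraries. WT replicate 1 was the highest WT library for 10 of the 10 genes, where it was the highest for 40.4% of all loci tested, and Type IV replicate 3 was the highest of its group for 10 of 10, against 40.1% of loci. WT replicate 1 exceeded the mean of the other two WT libraries 8.94-fold for PR1, 9.53-fold for PR2, 9.43-fold for PR5 and 7.32-fold for ALD1. The other genes differed less, by 2.09-fold for ICS1, 2.62-fold for EDS1, 2.39-fold for PAD4, 1.88-fold for SAG101, 1.56-fold for NPR1 and 2.74-fold for ACD6. The 2 synthesis genes, ALD1 and ICS1, thus differed from each other in this. In Type IV replicate 3 the excess over the other two Type IV libraries was largest for PR5 (5.84-fold) and ACD6 (5.14-fold) and smallest for SAG101 (1.32-fold) and NPR1 (1.43-fold). The median log2 excess of the 10 genes was 1.42 in WT replicate 1 and 1.76 in Type IV replicate 3, against 0.0049 and 0.0105 over all loci, where the scaling by size factors sets a value near 0. Type II replicate 1 was the highest of its group for 9 of the 10 genes (31.3% of loci), with a median log2 excess of 0.815 against -0.00646 over all loci. What set these libraries apart was not tested.

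The promoters of PR5 and ACD6 are shown because both genes were called lower in Type III leaves against both WT and Type I and because the transcription factors of the pathway act at such sequences. Each is the 250 bases before the annotated gene start in the RefSeq TAIR10.1 assembly, written on the gene's strand, with the W-box core TTGAC, or its reverse complement GTCAA, in capitals. The windows are chr1:28177420-28177669 on the plus strand for PR5 and chr4:8293915-8294164 on the plus strand for ACD6.
PR5: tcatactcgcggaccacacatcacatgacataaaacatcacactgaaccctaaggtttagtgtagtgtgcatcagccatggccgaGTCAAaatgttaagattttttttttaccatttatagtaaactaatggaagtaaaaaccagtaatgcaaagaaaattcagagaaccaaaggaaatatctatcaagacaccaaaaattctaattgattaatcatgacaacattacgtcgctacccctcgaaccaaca
ACD6: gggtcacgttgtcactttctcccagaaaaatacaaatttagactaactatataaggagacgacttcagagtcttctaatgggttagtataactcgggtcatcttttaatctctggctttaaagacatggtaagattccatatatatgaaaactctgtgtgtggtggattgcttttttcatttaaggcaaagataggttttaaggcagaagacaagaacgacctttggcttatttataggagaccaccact
The core TTGAC, bound by WRKY transcription factors, occurred on either strand in the windows of 3 of the 9 genes whose promoters were read, all but PR1. It stood 165 bases upstream of the start in PR5, 96 in EDS1 and 177 in SAG101. Of 27443 promoter windows of the same length at protein-coding genes, 44.9% held it. The core TGACG, bound by TGA factors, was in 0 of the 9 windows and in 18.6% of all windows. The 2 motifs share the letters TGAC and can overlap, and a match of 5 letters is a description and not a binding site.

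Type III leaves had the lowest counts of PR1, PR5, ALD1 and ACD6, and 6 of the 10 genes were called lower than in WT and 0 higher. The 6 were PR1, PR2, PR5, ICS1, ALD1 and ACD6, whereas no change was called for EDS1, PAD4, SAG101 and NPR1. The count of 6 was 4 without WT replicate 1 or Type III replicate 1, and 8 without WT replicate 2 or Type IV replicate 3. Of all loci tested, 23.6% were called lower in this comparison and 24% higher, so the share of the 10 genes was above that background. The genes were chosen with earlier results of these data known, so the share is a description. The median of the 10 log2 fold changes was -1.91, against -0.01 over all loci. For 5 of the 10 (PR1, PR5, ICS1, ALD1 and ACD6) every Type III library lay below every WT library, which held for 28.1% of all loci. Against Type I, the subtype that looks like WT, Type III had 3 genes called lower (PR1, PR5 and ACD6), where 20.3% of all loci were called lower, and 6 that lay below Type I without overlap (26.7% of loci). Without WT replicate 1, which enters that fit through the shared variance, the count was 5.

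Type IV leaves had a mixed pattern, with PAD4 and SAG101 called higher than in WT and ACD6 called lower, where 16% of all loci were called higher and 17% lower. The count of 3 was thus no larger a share than the 33% of all loci called in either direction. It dropped to 1, ACD6, without Type IV replicate 1, Type IV replicate 3, WT replicate 2 or WT replicate 3. It rose to 4 without Type IV replicate 2, where ICS1 was also called higher (1.22, adjusted p = 0.0475). Without WT replicate 1 it was also 4, with EDS1 called higher (0.90, adjusted p = 0.0292). Against Type I, 4 genes were called higher (ICS1, ALD1, PAD4 and SAG101), where 12.7% of all loci were, and ACD6 was called lower, where 15.1% were. For 7 of the 10 every Type IV library lay above every Type I library (20.8% of loci), ACD6, PR2 and PR5 being the exceptions. The total of 5 calls became 3 without Type I replicate 1, Type I replicate 2 or Type IV replicate 1, and 6 without WT replicate 1. The counts for Types III and IV against WT share the WT libraries, and those against Type I share the Type I libraries.

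Neither Type I nor Type II had a called gene against WT in limma. In Type I all 10 log2 fold changes were below 0, with a median of -0.59, a pattern that depended on WT replicate 1. Without that library they were 0.52 for PR2, 0.48 for PR5, 0.05 for EDS1 and -0.00 for PR1. The others stayed below 0, from -1.54 for ALD1 to -0.05 for NPR1. With all libraries 0 genes were called by limma, where 0.0739% of all loci were called. At an unadjusted p under 0.05 there were 2 (ALD1 and SAG101, with 14.5% of all loci), edgeR called 0 (0.0512% of loci), and DESeq2 called 1, ALD1 (1.15% of loci). In Type II 0 genes were called against WT, where 14.6% of all loci were. There the unadjusted count was 1 (NPR1, with 29.7% of all loci), and edgeR and DESeq2 called 0 (14.7% and 15.5% of loci). Type II against Type I also gave 0 calls by limma (14.3% of loci) and by edgeR (14.5%), 2 at an unadjusted p (PR1 and ALD1, with 28.3% of loci) and 1 by DESeq2 (ALD1, with 14.7% of loci). The mean of the 4 ubc22 subtypes was also set against WT, and is named below as all ubc22 libraries. The spread between subtypes does not enter the standard error of this contrast. For it limma called 1 gene, ACD6, lower, where 10.7% of all loci were called lower. By edgeR 4 were called (PR1, PR5, ALD1 and ACD6, with 23.3% of loci called in either direction) and by DESeq2 2 (ALD1 and ACD6, with 23%).

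**Figure D1:**
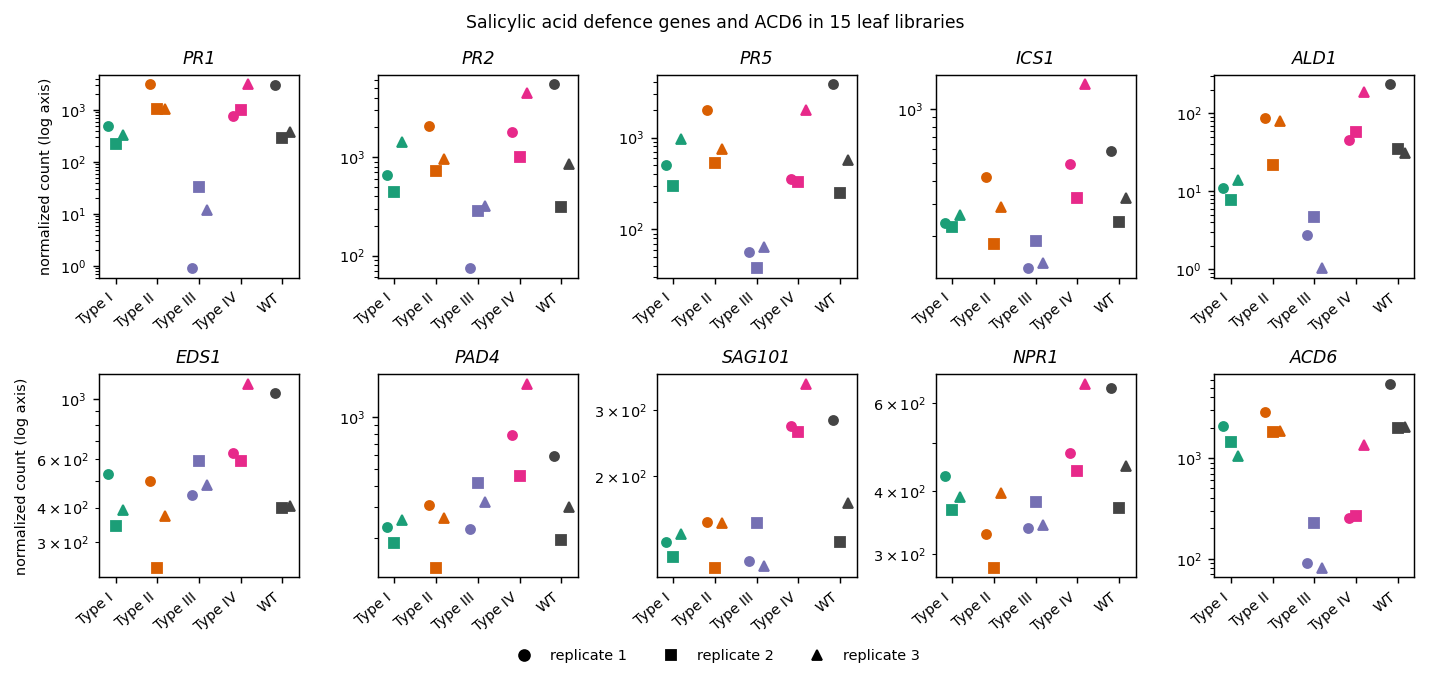
Normalized counts (log axis, scale set for each panel) of the 10 genes in the 15 libraries, 1 panel per gene, with groups on the horizontal axis and a symbol for each replicate. Type III libraries are lowest for PR1, PR5, ALD1 and ACD6, and WT replicate 1 and Type IV replicate 3 are the highest libraries of their groups in all 10 panels.

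PR1 encodes a secreted pathogenesis-related protein and is the standard marker of salicylic acid signalling. The gene lies at chr2:6241640-6242541 on the minus strand (AT2G14610, 1 exon, protein-coding; gene positions here are those of RefSeq TAIR10.1). Its normalized counts were 499, 224 and 326 in the 3 Type I libraries, 3135, 1042 and 1036 in Type II, 0.903, 32.8 and 12.2 in Type III, 784, 1006 and 3204 in Type IV, and 2993, 288 and 382 in WT. The value of 0.903 in Type III replicate 1 was a single read. Every Type III library lay below every library of the other groups, while WT replicate 1 stood with the highest Type II and Type IV libraries and the other two WT libraries stood with Type I. PR1 was lower in Type III than in WT by a log2 fold change of -6.19 ± 0.96 (adjusted p = 0.000115) and lower than in Type I by -5.13 ± 0.96 (adjusted p = 0.000622). Without WT replicate 1 the change against WT was -5.13 (adjusted p = 0.000383). In Type II all 3 libraries lay above all 3 Type I libraries, with a log2 fold change of 2.18 ± 0.96 that was not called in the 5-group fit (adjusted p = 0.152) and was in the groups alone (0.0107). With each chromosome centred on its median it was 1.67 and not called (0.372).

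PR2 encodes a beta-1,3-glucanase that attacks fungal cell walls, and it lies at chr3:21188397-21189967 on the minus strand (AT3G57260). Normalized counts were 650.2, 438 and 1407 in Type I, 2063, 729 and 948.5 in Type II, 74.0, 280.3 and 321 in Type III, 1783, 989 and 4429 in Type IV, and 5534, 309 and 852 in WT. Type III replicate 3 lay above WT replicate 2, so Type III and WT overlapped. The log2 fold change of -2.58 ± 0.87 in Type III against WT passed the threshold (adjusted p = 0.0233) but lost it without WT replicate 1 (-1.44, adjusted p = 0.116), without Type III replicate 1 (adjusted p = 0.111) and in a fit of these groups alone (adjusted p = 0.0582). Against Type I, where the groups did not overlap, the difference of -1.96 ± 0.87 was not called in the 5-group fit of all libraries (adjusted p = 0.0831) and was called in the groups alone (0.0124) and without WT replicate 1 (0.0223) or WT replicate 2 (0.0475).

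PR5 encodes a thaumatin-like protein and lies at chr1:28177670-28179022 on the plus strand (AT1G75040). Normalized counts were 505, 296 and 963 in Type I, 1978, 535 and 759 in Type II, 56.0, 37.5 and 64.2 in Type III, 354, 332 and 2004 in Type IV, and 3857, 247 and 570.4 in WT. Type III was again below all other libraries. The log2 fold change in Type III was -3.97 ± 0.86 against WT (adjusted p = 0.00156) and -3.33 ± 0.86 against Type I (adjusted p = 0.0059), and both calls held without any single library (against WT -2.85, adjusted p = 0.00498, without WT replicate 1). In Type IV, 2 libraries lay within the range of the Type I libraries and replicate 3 lay above it, and the log2 fold change against WT was -0.40 ± 0.86 (adjusted p = 0.751).

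ICS1 encodes isochorismate synthase, the enzyme that supplies most pathogen-induced salicylic acid, and lies at chr1:28070295-28074177 on the plus strand (AT1G74710). Normalized counts were 235.5, 223 and 260.5 in Type I, 422, 179 and 286 in Type II, 132, 186 and 141 in Type III, 496, 324 and 1377 in Type IV, and 585, 236 and 322.5 in WT. Type III libraries were below all WT and Type I libraries, and Type IV libraries were above all Type I libraries. The spread of ICS1 between groups was narrower than that of PR1. ICS1 was called lower in Type III than in WT (log2 fold change -1.23 ± 0.44, adjusted p = 0.0303), a call lost without WT replicate 1 (adjusted p = 0.128), WT replicate 3 (0.0516), Type III replicate 1 (0.0858) or Type III replicate 3 (0.0791), and with each chromosome centred on its median (0.0512). It was called higher in Type IV than in Type I (1.34 ± 0.44, adjusted p = 0.0337), and that call too was lost without any 1 of the Type I libraries (adjusted p = 0.0598 to 0.0888), without Type IV replicate 1 (0.0543) or replicate 3 (log2 fold change 0.74, adjusted p = 0.134), in the groups alone (0.0514) and with chromosomes centred (0.0613).

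ALD1 encodes the aminotransferase that opens the lysine route to pipecolic acid, and lies at chr2:5768417-5772266 on the plus strand (AT2G13810). It was the least abundant of the 10 genes, with 11.1, 7.72 and 13.95 normalized counts in Type I, 87.2, 21.7 and 79.4 in Type II, 2.71, 4.69 and 1.02 in Type III, 46.2, 57.5 and 190.7 in Type IV, and 241, 34.55 and 31.3 in WT. The Type III libraries were the lowest and the Type I libraries the next lowest, with no overlap between them or with any other group. The log2 fold change in Type III against WT was -4.22 ± 0.74 (adjusted p = 0.00031), and without WT replicate 1 it was -3.28 (adjusted p = 0.00083). ALD1 was called higher in Type IV than in Type I (2.80 ± 0.74, adjusted p = 0.0122), and barely so without Type IV replicate 3 (2.17, adjusted p = 0.0498). Type I against WT gave -2.49 ± 0.74, which limma did not call (adjusted p = 0.171) and DESeq2 did (adjusted p = 0.0371). Type II against Type I gave 2.23 ± 0.74, which limma did not call in the 5-group fit (adjusted p = 0.058) and did in the groups alone (0.0179), with library totals as the scale (0.0485), and without Type II replicate 2 (0.0316), Type IV replicate 3 (0.0424) or WT replicate 1 (0.0153). With chromosomes centred it was 1.72 and further from the threshold (0.232). Type III against Type I (-1.74 ± 0.74, 0.073) passed in the groups alone (0.0201) and without WT replicate 1 (0.0222).

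EDS1, PAD4 and SAG101 encode related lipase-like proteins. EDS1 pairs with either PAD4 or SAG101 to pass on signals from intracellular receptors. EDS1 lies at chr3:17755329-17758147 on the minus strand (AT3G48090), PAD4 at chr3:19431095-19434450 on the plus strand (AT3G52430) and SAG101 at chr5:4828499-4830982 on the plus strand (AT5G14930).

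Normalized counts of EDS1 were 530.4, 343 and 391 in Type I, 498, 240 and 372 in Type II, 445, 593 and 482 in Type III, 634, 589.7 and 1137 in Type IV, and 1050, 398 and 404 in WT. Type III libraries were above 2 of the 3 WT libraries and below the third, and the log2 fold change was -0.14 ± 0.35 (adjusted p = 0.776). Type IV libraries lay above all Type I libraries, with a log2 fold change of 0.86 ± 0.35 that was not called in the 5-group fit (adjusted p = 0.0832) and was in the groups alone (0.0383) and without WT replicate 1 (0.0234). Against WT, Type IV gave 0.44 ± 0.35 (adjusted p = 0.356), which without WT replicate 1 was 0.90 and called (0.0292).

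PAD4 had 232.5, 186 and 252 normalized counts in Type I, 312, 133.5 and 262 in Type II, 226, 413 and 322 in Type III, 789.6, 458 and 1565 in Type IV, and 594, 195 and 303 in WT. Type IV libraries were above all Type I libraries and overlapped WT through WT replicate 1. PAD4 was called higher in Type IV than in Type I (log2 fold change 1.89 ± 0.44, adjusted p = 0.00602), also without Type IV replicate 3 (1.43, adjusted p = 0.0235). The call against WT (1.33 ± 0.44, adjusted p = 0.0305) was lost without Type IV replicate 1 (adjusted p = 0.0679), Type IV replicate 3 (log2 fold change 0.88, adjusted p = 0.13), WT replicate 2 (0.139) or WT replicate 3 (0.0776), in the groups alone (0.0929) and with chromosomes centred (0.0535), and it was 1.76 (0.00675) without WT replicate 1. In Type III PAD4 did not pass against WT (-0.07 ± 0.44, adjusted p = 0.906).

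SAG101 had normalized counts of 133, 121 and 139.5 in Type I, 150.4, 113 and 149.6 in Type II, 118, 149 and 114 in Type III, 271, 263 and 354 in Type IV, and 283, 133 and 168.5 in WT. Type IV libraries were above all Type I, Type II and Type III libraries, and WT replicate 1 alone of the WT libraries reached their range. The log2 fold change in Type IV was 1.16 ± 0.22 against Type I (adjusted p = 0.0018), with 1.03 (0.00755) without Type IV replicate 3, and 0.66 ± 0.22 against WT (adjusted p = 0.0322). The call against WT was lost without Type IV replicate 1 (adjusted p = 0.0564), Type IV replicate 3 (0.109), WT replicate 2 (log2 fold change 0.42, adjusted p = 0.159) or WT replicate 3 (0.0971), in the groups alone (0.11) and with chromosomes centred (0.0758), and it was 0.97 (0.00112) without WT replicate 1. In Type III the log2 fold change of -0.55 ± 0.22 against WT just missed the threshold (adjusted p = 0.0534), and it passed with TMM scaling (0.0461), scaling to library totals (0.0371), edgeR (0.0372) and DESeq2 (0.0293), and without Type III replicate 2 (0.043), Type IV replicate 3 (0.0488) or WT replicate 2 (0.0091).

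Chromosome 3, which carries EDS1, PAD4 and PR2, had a median log2 fold change of 0.48 over its tested genes in Type III against WT, while the other chromosomes had medians of -0.12 to -0.10. With each chromosome centred on its own median, the log2 fold changes in Type III against WT were -0.61 for EDS1 (0.178 as adjusted p), -0.55 for PAD4 (0.335) and -3.06 for PR2 (0.0113). Against Type I, EDS1 had 0.28 without centring and -0.20 with it, and neither value was called. PR2 in Type III against Type I was called with chromosomes centred (-2.44, adjusted p = 0.041).

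NPR1 encodes the salicylic acid receptor and co-activator that carries the signal to PR1, and lies at chr1:23852748-23855658 on the minus strand (AT1G64280). Normalized counts were 429, 366.5 and 389.5 in Type I, 329.8, 281 and 397 in Type II, 338, 382 and 343.5 in Type III, 477, 439 and 655 in Type IV, and 641, 370.1 and 450.1 in WT. All groups overlapped WT, and with all libraries in the fit and the size-factor scaling NPR1 was called in none of the comparisons with WT or with Type I. Type II against WT passed without WT replicate 2 (-0.69, adjusted p = 0.0333), and Type III against WT (-0.42 ± 0.19, 0.0742) passed without WT replicate 2 (-0.60, 0.0192) or Type IV replicate 3 (0.0496) and with scaling to library totals (0.0489). The lowest log2 fold change against WT was -0.51 ± 0.19 in Type II (adjusted p = 0.0794), the highest was 0.12 ± 0.19 in Type IV (0.652), and over all 15 libraries the receptor gene ranged from 281 to 655 normalized counts where PR1 ranged from 0.903 to 3204.

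ACD6 lies at chr4:8294165-8299195 on the plus strand (AT4G14400). Its normalized counts were 2067, 1459 and 1049 in Type I, 2876, 1806 and 1874 in Type II, 90.3, 224 and 80.5 in Type III, 256, 263 and 1334 in Type IV, and 5500, 1993 and 2025 in WT. Type III and Type IV libraries were below every WT library, and Type III was also below every Type IV library. Type IV replicate 3 lay above Type I replicate 3 and within the Type I range. By group mean the order was WT with 3173 ± 2016, Type II with 2186 ± 599, Type I with 1525 ± 512.5, Type IV with 618 ± 620.2 and Type III with 132 ± 80.2 (SD, n = 3 each). WT and Type II overlapped in this order, as did Type II and Type I, and Type I and Type IV, while Type IV and Type III did not.

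In Type III the log2 fold change of ACD6 was -4.57 ± 0.57 against WT (adjusted p = 1.66e-05) and -3.63 ± 0.57 against Type I (adjusted p = 0.00015). In Type IV it was -2.65 ± 0.57 against WT (adjusted p = 0.00296). Neither Type I (-0.94 ± 0.57, adjusted p = 0.464) nor Type II (-0.40 ± 0.57, 0.692) was called against WT for ACD6. The mean of the 4 subtypes against WT was called (-2.14 ± 0.45, adjusted p = 0.00427), and it averages these unlike subtypes. These 4 calls held under every alternative run, including without WT replicate 1, where the values against WT were -4.08 in Type III, -2.16 in Type IV and -1.65 over all ubc22 libraries, and without Type IV replicate 3, where Type IV against WT gave -3.43 (adjusted p = 0.000152). Chromosome 4, which carries ACD6, had a median log2 fold change of -0.41 in Type IV against WT, where the other chromosomes had medians of -0.11 to 0.11, and with chromosomes centred ACD6 had -2.23 (adjusted p = 0.00894). The call in Type IV against Type I (-1.71 ± 0.57, adjusted p = 0.0372) was lost with edgeR (0.104), with DESeq2 (0.148), in the groups alone (0.0574), with chromosomes centred (0.112), and without Type I replicate 1 (0.125), Type I replicate 2 (0.0845), Type IV replicate 1 (0.154) or Type IV replicate 2 (0.14).

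**Figure D2:**
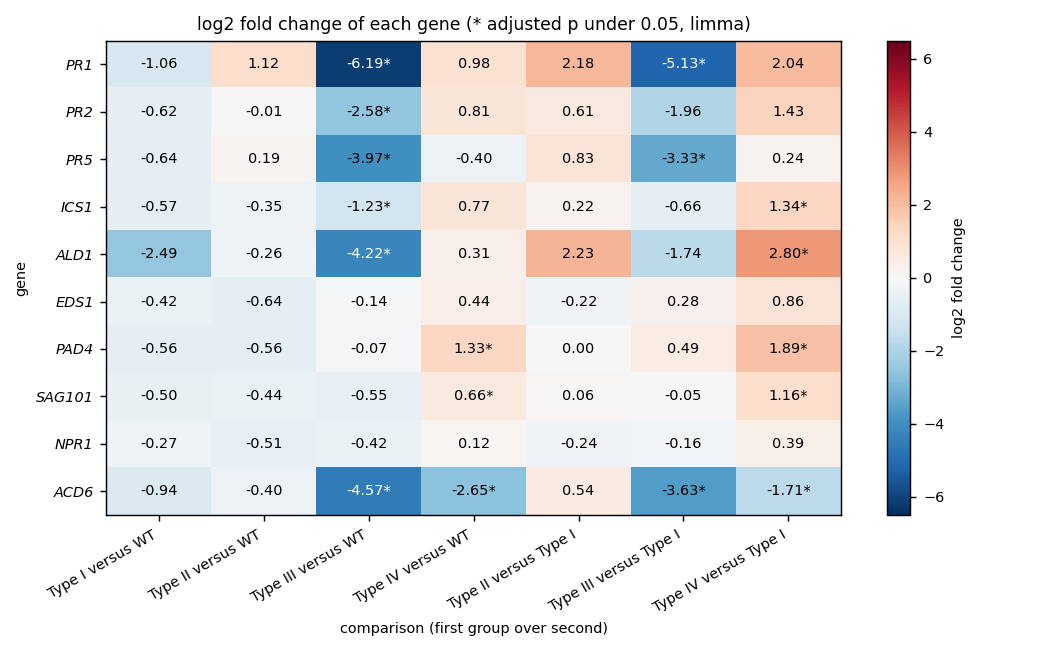
Log2 fold changes of the 10 genes (rows) in 7 comparisons (columns, first group over second), coloured from blue for lower to red for higher, with an asterisk at an adjusted p under 0.05. The Type III columns hold the lowest values, down to -6.19 for PR1 against WT, and Type IV pairs higher PAD4 (1.33) and SAG101 (0.66) with lower ACD6 (-2.65) against WT.

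In Type IV leaves ACD6 was below WT while ICS1 overlapped WT and PAD4 was called higher. The difference between ACD6 and ICS1 within a library, in log2(normalized count + 1), was 3.13, 2.71 and 2.01 in Type I, 2.77, 3.33 and 2.71 in Type II, -0.54, 0.27 and -0.80 in Type III, -0.95, -0.30 and -0.05 in Type IV, and 3.23, 3.07 and 2.65 in WT. The 6 libraries of Types III and IV all lay below the 9 others. WT replicate 1, with 3.23, and Type IV replicate 3, with -0.05, had the highest ICS1 and ACD6 of their groups but stood close to their groups on this measure. ACD6 minus PAD4 separated the same libraries, with -1.31, -0.88 and -1.99 in Type III, -1.62, -0.80 and -0.23 in Type IV, and 2.05 to 3.75 in Types I and II and WT. PR1 minus PAD4 set Type III apart alone, with -6.90, -3.62 and -4.61 in Type III, against -0.01 to 3.33 in the other 12 libraries. These pairs were chosen after the values of the genes were seen, and they are given without a test.

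**Figure D3:**
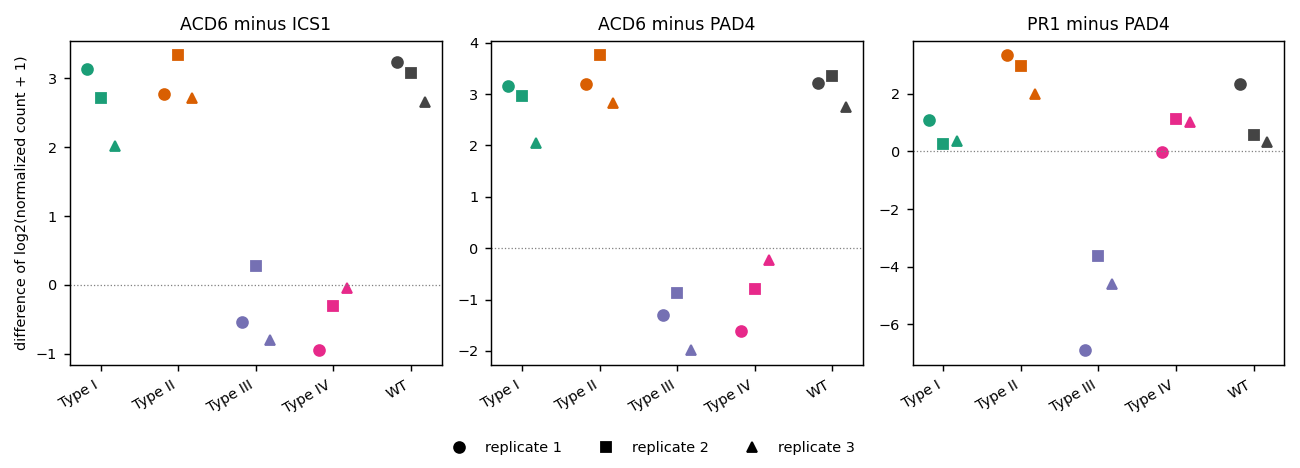
Differences between pairs of genes within each library, in log2(normalized count + 1), for ACD6 minus ICS1, ACD6 minus PAD4 and PR1 minus PAD4, with a symbol for each replicate and a dotted line at 0. Types III and IV lie between -1.99 and 0.27 in the first and second panels, below all other libraries, and Type III lies at -3.62 or lower in the third.

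Among the other genes of the pathway, 57 were listed, 56 were in the table and 52 were tested. In Type III against WT, 29 of the 52 were called lower and 2 higher (23.6% and 24% of all loci), and the median of their log2 fold changes was -0.81 (all loci -0.01). Of 9 response markers 6 were called lower and 0 higher. LLP1, a lectin-like gene of systemic immunity, had -4.57 ± 0.70 (adjusted p = 0.000108), the plant natriuretic peptide gene PNP-A -4.36 ± 0.75 (0.00026), AIG1 -3.68 ± 0.65 (0.000346) and the aspartyl protease gene AED1 -3.33 ± 0.55 (0.000199). Of 10 tested WRKY transcription factor genes linked to the hormone, 7 were called lower and 0 higher, including WRKY38 (-4.09 ± 0.83, adjusted p = 0.000956), WRKY50 (-3.61 ± 0.69, 0.000608), WRKY54 (-3.09 ± 0.55, 0.000346) and WRKY18 (-1.94 ± 0.37, 0.000631).

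Of 4 tested genes for enzymes that modify salicylic acid, 2 were called lower and 0 higher in Type III against WT, DLO1 (-4.58 ± 0.99, adjusted p = 0.00153) and DMR6 (-1.43 ± 0.42, 0.0119), both encoding salicylic acid hydroxylases. Over all loci the shares here and for the lists below were 23.6% lower and 24% higher. The methyltransferase gene BSMT1 had 1.46 ± 1.27 (0.366) and the glucosyltransferase gene UGT74F2 0.30 ± 0.17 (0.16). Of 13 genes for NPR receptors, TGA factors and NIMIN proteins, which bind NPR1, 7 were called lower and 1 higher. NPR4, a receptor that represses defence genes, had -0.80 ± 0.16 (adjusted p = 0.00101), NIMIN3 -0.41 ± 0.10 (0.00411), and TGA6, the gene that was higher, 0.91 ± 0.14 (0.000124). TGA6 lies on chromosome 3, whose tested genes had a median log2 fold change of 0.48 in this comparison. Of 8 genes for synthesis and its regulators, 3 were called lower and 1 higher, and the higher one was CAMTA3 (0.47 ± 0.09, 0.000646), whose product represses salicylic acid synthesis. EPS1, for an enzyme of the last step of synthesis, had -1.14 ± 0.34 (0.013), a call lost without Type III replicate 3. Among 7 receptor nodes 3 were called lower and 0 higher, with NRG1.1, a helper receptor that works with EDS1 and SAG101, at -0.66 ± 0.10 (0.000125) and the helper receptor gene ADR1 at -0.76 ± 0.23 (0.0124). ADR1 lost its call without WT replicate 1 or Type III replicate 1 and in the groups alone. The only tested gene of the pipecolate list, UGT76B1, had -4.20 ± 1.27 (0.0133) and lost its call without WT replicate 1 or Type III replicate 1.

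In Type IV against Type I, 15 of the 52 genes were called higher and 1 lower (12.7% and 15.1% of all loci), and the median of their log2 fold changes was 0.45 (all loci 0.01). DMR6 (1.89 ± 0.42, adjusted p = 0.00486), ADR1 (1.34 ± 0.23, 0.000788) and AIG1 (2.90 ± 0.65, 0.00505) were among those higher without any single library left out ending the call, and so were NIMIN3 (0.45 ± 0.10, 0.00514), TGA6 (0.54 ± 0.14, 0.0124) and CAMTA3 (0.40 ± 0.09, 0.00534). The lower gene was ICS2, the second isochorismate synthase gene, with -1.26 ± 0.27 (0.00344). WRKY38 (2.79 ± 0.83, 0.0216) and WRKY50 (2.33 ± 0.69, 0.0216) lost their calls without Type IV replicate 3, among other libraries. The count of 16 was 8 without Type I replicate 2.

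Against WT, Type IV had 6 of the 52 called higher and 4 lower, with a median of 0.10, both shares being below the 16% and 17% of all loci. ADR1 rose by 1.15 ± 0.23 (adjusted p = 0.00155) and TGA6 by 0.77 ± 0.14 (0.00108), while NPR4 had -1.05 ± 0.16 (0.000338). NPR4 lies on chromosome 4, whose tested genes had a median log2 fold change of -0.41 in this comparison. The total of 10 was 18 without WT replicate 1 and 6 in the groups alone. Limma called 0 of the 9 response markers and 0 of the 10 WRKY genes here, where it called 33% of all loci in either direction. At an unadjusted p under 0.05, which at least those 33% of loci also pass, there were 2 of each. EdgeR and DESeq2 called 0 of both.

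Type III against Type I gave 4 higher and 15 lower (median -0.38), where 21.3% and 20.3% of all loci were called. The total of 19 was 12 without Type I replicate 3. Among the lower genes were PNP-A (-3.96 ± 0.75, 0.000661), LLP1 (-3.64 ± 0.70, 0.00079), AED1 (-2.41 ± 0.55, 0.00282) and WRKY18 (-1.93 ± 0.37, 0.000768). Type I against WT gave 0 of 52 by limma and edgeR, 2 by DESeq2 (1.15% of all loci) and 14 at an unadjusted p under 0.05 (14.5%). Type II gave 2 higher and 1 lower against both WT and Type I, below the 14.6% and 14.3% of all loci, with CAMTA3 higher in both. The total of 3 against WT was 0 with chromosomes centred, 1 in the groups alone or without Type II replicate 3, and 5 with DESeq2 or without WT replicate 1. The total of 3 against Type I was 1 with chromosomes centred, 5 with edgeR, with a pseudocount of 5 or without Type III replicate 3, 6 with scaling to library totals and 8 in the groups alone. The repressor gene CAMTA3 had 1086, 1028 and 1277 normalized counts in Type II, 942.5, 1055 and 1066 in Type III and 984, 956 and 954 in Type IV, against 706, 694 and 795 in Type I and 758, 695 and 749.7 in WT, so that all 9 libraries of Types II to IV lay above all 6 of Type I and WT. CAMTA3 lies on chromosome 2, whose tested genes had a median log2 fold change of 0.50 in Type II against WT and against Type I, and with chromosomes centred its call in Type II was lost. PR1 and ALD1 lie on the same chromosome, and with centring their log2 fold changes in Type II against Type I were 1.67 (adjusted p = 0.372) and 1.72 (0.232).

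**Figure D4:**
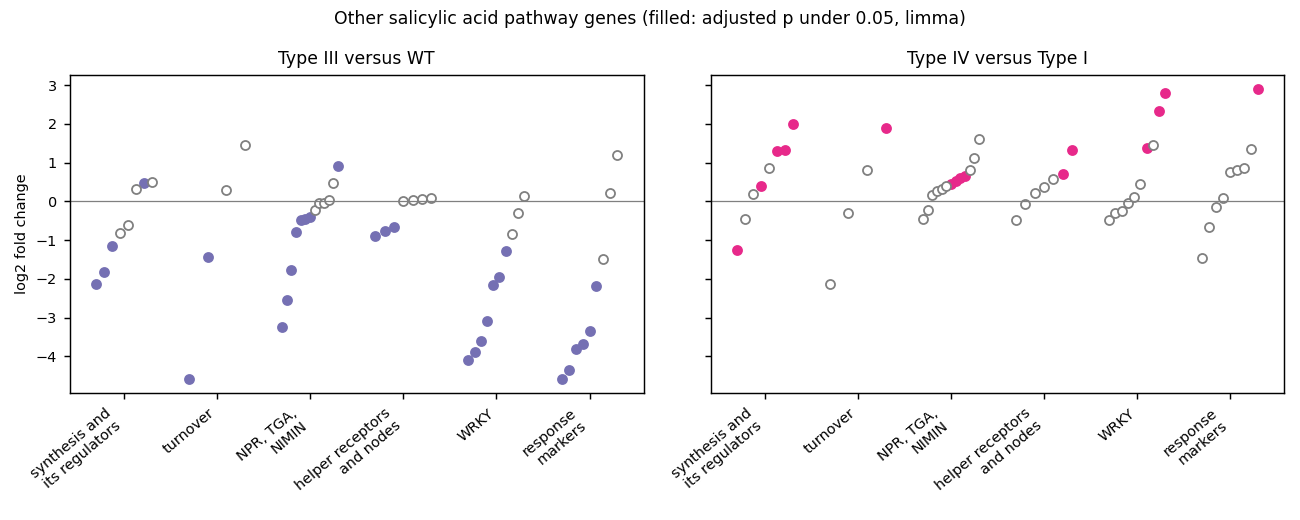
Log2 fold changes of other salicylic acid pathway genes, 1 point per gene, grouped by list on the horizontal axis, in Type III against WT (left) and Type IV against Type I (right), with filled points at an adjusted p under 0.05 and open points above it. In Type III 6 of 9 response markers and 7 of 10 WRKY genes are filled and below 0, and in Type IV the filled points lie above 0 apart from ICS2 at -1.26.

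Likeness to 3 of the genes was measured as Pearson's r of log2(normalized count + 1) over the 15 libraries, which share the group differences described above, and it is given as a description. The loci most like PR1 were HO3 (r = 0.974), for a heme oxygenase, the receptor-like kinase gene AT1G51890 (0.969), WAK3 (0.968), for a wall-associated kinase, UGT87A2 (0.956), for a glycosyltransferase, and AT1G74440 (0.956). Those most like ICS1 were URE (0.974), for urease, AT5G52760 (0.973), UTR3 (listed as ATUTR3, 0.971), for a nucleotide-sugar transporter, PBS3 (0.962), whose product acts directly after isochorismate synthase in salicylic acid synthesis, and PUB54 (listed as ATPUB54, 0.955), for a U-box protein. PBS3 had 216, 155 and 626 normalized counts in Type IV. These loci were picked by likeness to ICS1 over the same libraries, so moving with ICS1 follows from the choice.

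The loci most like ACD6 were CRK15 (r = 0.987), for a cysteine-rich receptor-like kinase, AT4G36280 (0.983), CNGC11 (listed as ATCNGC11, 0.981), for a cyclic nucleotide-gated channel, AT1G49750 (0.979) and CML10 (0.977), for a calmodulin-like protein. CNGC11 had 484, 365 and 293 normalized counts in Type I, 788, 560 and 752 in Type II, 47.85, 65.6 and 34.7 in Type III, 134, 135 and 483 in Type IV, and 1076, 440.1 and 492 in WT. As with ACD6, Type III was lowest and Type IV replicate 3 stood above the other two Type IV libraries. The named loci like PR1 had log2 fold changes against WT of -4.80 to -1.73 in Type III and -0.09 to 0.35 in Type IV. Those like ACD6 had -3.66 to -1.83 in Type III and -1.57 to -0.96 in Type IV. Both sets were picked by likeness over these same libraries, so shifts like those of PR1 or ACD6 follow from the choice. Within the 10 genes, r was 0.883 for PR1 with PR2 and with ALD1 and 0.882 for PR1 with PR5, but -0.1 for ACD6 with PAD4 and 0.00371 for ACD6 with EDS1.

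Several of the 10 genes have close copies, and the sources used here do not say how reads that match more than 1 copy were counted, so part of a value could belong to a copy. The copies named here had fewer normalized counts than the gene they resemble, except PRB1 beside PR1 in Type III. AT4G14390, the neighbour of ACD6, had 0 reads in all 3 Type III libraries, 3.19 to 21.5 normalized counts in Type IV and up to 62.0 in WT, and BG3, a copy of PR2, had 0.903 to 2.81 in Type III and up to 94.7 in WT. AT3G48080, a copy of EDS1, had 28.54 to 60.94 in Type III and 90.02 to 312.2 in WT, without overlap. EDS1 itself was not called in that comparison. Of 5 tested copies, 4 were called lower in Type III than in WT and 0 higher. PRB1, a copy of PR1, went the other way from PR1, with 38.8, 13.1 and 22.4 normalized counts in Type III (above PR1 in replicates 1 and 3) against 1.01 to 6.75 in Type I (log2 fold change 2.52 ± 0.47, adjusted p = 0.000607). The library kit does not mark strand, so antisense reads would be counted with the genes.

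Markers of leaf mesophyll were abundant in every library, with the summed normalized counts of 6 genes at 469047 to 620428 in Type III, 507245 to 520564 in Type IV and 533891 to 628692 in WT. Of these 6, RCA (-0.61 ± 0.16, adjusted p = 0.00519) and CA1 (-0.41 ± 0.16, 0.0418) were called lower in Type III than in WT, and likewise in Type IV (RCA -0.57 ± 0.16, 0.0117; CA1 -0.74 ± 0.16, 0.00259). The RCA calls were lost with no filter on low values, and so was the CA1 call in Type III, among other alternatives. Of 6 root markers, EXPA7 was at 0 in all libraries and only PYK10 reached the tested level, being called higher in Type III than in WT (1.56 ± 0.27, adjusted p = 0.000297) and in Type II (1.34 ± 0.27, 0.00458). The summed root list was 776 to 1207 in Type II, 863 to 1424 in Type III, 233.7 to 426 in Type IV and 271 to 482 in WT, nearly all of it PYK10. NRT2.1, below the tested level, had 1.02 to 2.81 normalized counts in Type III, 0.796 to 1.06 in Type IV and 5.46 to 13.2 in WT. The 5 flower genes were low, summing to 50 to 106 in Type I, 12.0 to 13.45 in Type II, 68.6 to 146 in Type III, 23.9 to 40.45 in Type IV and 18.2 to 25.7 in WT, with 3 of the 3 tested called higher in Type III than in WT. AP1 was at 0 in all 3 Type II libraries. Of 5 tested senescence genes, ORE1 (2.51 ± 0.42, adjusted p = 0.000209) and SGR2 (1.79 ± 0.46, 0.00529) were called higher in Type III than in WT and WRKY6 lower, while the summed list was 622 to 705 in Type III and 381 to 804.5 in WT. The part of these markers in the lower PR and ACD6 levels of Type III was not tested.

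Levels between genes were compared as mean normalized counts per kilobase of exon. In Type III leaves EDS1 (199 per kb) and PAD4 (142) exceeded PR1 (17.0), PR5 (48) and ACD6 (40.8) on this scale. WT leaves had the opposite order, with 1354 for PR1, 1423 for PR5 and 983 for ACD6, against 242 for EDS1 and 161 for PAD4, although the WT means of the PR genes rest largely on WT replicate 1.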

How the data were processed

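Leaf RNA of 5 groups was sequenced in 15 libraries (3 each). The deposited table holds normalized counts (unit signal) for 34307 loci, named by AGI code, gene symbol and a locus number of the authors' own. Per the submitters' processing notes the genome build was TAIR10 and the tools were DESeq2 1.12.4, HTSeq 0.6.0, StringTie 1.0.3 and STAR 2.4.0j, with no role given for each. The deposited signal values are whole reads times 1 step per library (100% of values within a tolerance of 1e-06), so reads were recovered, 8865955 to 13138977 per library. Loci without an AGI code (260, with 0.136% of reads) stayed in. All 15 columns were assigned by name, although 2 column names differ from the sample titles by a typing slip.

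Loci with a mean normalized count of at least 10 (17595) were tested with limma 3.58.1 (R 4.3.3, mean-variance trend) on log2(normalized count + 1), a scale that understates folds of low genes, with all 5 groups in 1 fit, two-sided, and with Benjamini-Hochberg adjustment over all loci of a comparison. P-values measure the spread between libraries labelled biological replicates. Alternatives were TMM scaling, scaling to library totals, a pseudocount of 5, no filter, edgeR 4.0.16 and DESeq2 1.42.0 on recovered reads, a fit of the compared groups alone, centring each chromosome on its median, and leaving out each library. Leaving out WT replicate 1 and Type IV replicate 3 together was added after the data were seen. The fit was tested on simulated data.

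The members and lists were chosen with earlier results of these data known. Beside the members, the rule names up to 4 loci with the smallest p in each list, the 5 loci most like PR1, ICS1 and ACD6, and UBC22. Positions and promoter sequences are from RefSeq TAIR10.1, and the deposited values carry no coordinates. All 10 members matched it. The promoter of PR1 is not reported here. Low counts, as for ALD1 and for PR1 in Type III, carry the largest counting error.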

Additional observations from a re-analysis of the deposited data

How the results depend on the processing

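Of 18 called differences of single members, 12 kept their call and direction under every alternative run, and none of the 10 genes changed direction while called. The counts of called members moved by more than 1.5 times as follows. With DESeq2, Type I against WT gave 1 in place of 0, Type II against Type I gave 1 in place of 0, and all ubc22 libraries against WT gave 2 in place of 1. With edgeR the last count was 4. In the compared groups alone, Type IV against WT gave 1 in place of 3, Type II against Type I gave 2 in place of 0, and Type III against Type I gave 6 in place of 3. With chromosomes centred, Type IV against WT gave 1, Type IV against Type I gave 3 in place of 5, and all ubc22 against WT gave 2. Scaling to library totals gave 1 for Type II against Type I. Without both WT replicate 1 and Type IV replicate 3, an alternative chosen after seeing the data, Type II against Type I gave 1 and Type III against Type I gave 6. The cause of these shifts was not tested. Except for edgeR and DESeq2, the shares of all loci called in these runs, or with a library left out, are not given. Such a move in a count therefore cannot be told apart from a change in calls over all loci. Leaving out each library in turn gave 0 to 0 members for Type I against WT, 0 to 1 for Type II, 4 to 8 for Type III and 1 to 4 for Type IV against WT, 0 to 1, 3 to 5 and 3 to 6 for Types II, III and IV against Type I, and 1 to 2 for all ubc22 libraries. Of the other 52 pathway genes, 31 were called in Type III against WT, with 29 to 33 under the alternatives and 22 to 32 without 1 library, and 10 in Type IV against WT, with 6 to 10 and 7 to 18. No paired analysis was possible because the labels give the groups no shared replicate numbers.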
